A study of Mus musculus with 13 samples.

Results

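A single dose of 7.5 Gy (7.5 Gy × 1) was compared with no irradiation (0 Gy) in CD45+ cells, the leukocyte fraction, of CT26 tumors in the progression (T21) phase. The comparison rests on 2 of the 13 samples of the series, 1 per arm. It covers the 415 of 547 immune genes whose mean count over the 13 samples exceeded a background of 13.1 counts, which is the mean plus 2 SD of the negative control probes averaged over the samples.

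CT26 is a mouse colon carcinoma line, implanted in the flank of 6-week-old female BALB/c mice and irradiated locally 12 days later. The 0 Gy sample came from tumors of the same phase, day 21 counted from the start of irradiation, that received no dose. The labels call this phase regrowth. The series also holds 1 baseline sample and 1 sample per arm at days 2, 7 and 14, and a further arm with 5 doses of 2 Gy (2 Gy × 5). RNA of magnetically isolated CD45+ cells was read on an nCounter immunology panel, in which color-coded probes bound to the transcripts are counted directly, with no amplification step. The methods give 3 mice per group, and whether a sample pools them is not given in the sources used here. With 1 sample per arm no test was possible, and all 95% intervals below cover counting error only.

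Both samples were read in the same nCounter run, 1 of 3, with the 2 Gy × 5 sample of T21 and the 0 Gy and 7.5 Gy × 1 samples of T14. Total counts were 171345 after 0 Gy and 175689 after 7.5 Gy × 1, near the low end of the series (166307 to 675847). These totals include control and housekeeping probes. Counts of the immune genes alone (endogenous counts) were 110691 after 0 Gy, the lowest of the series, and 122682 after 7.5 Gy × 1. The 0 Gy sample, the reference for every T21 fold, also had the fewest of the 415 genes above its own background, 343. Normalized counts are the authors' values, in which 14 housekeeping genes have the same geometric mean in every sample. The samples differed in background, which was 15.5 counts after 0 Gy and 7 after 7.5 Gy × 1. Of the 415 genes, 340 were above it in both samples, 52 only after 7.5 Gy × 1, 3 only after 0 Gy and 20 in neither. A gene's fold in which 1 sample was at its background is given as a bound.

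Tumors hold lymphocytes that can kill cancer cells and myeloid cells, among them monocytes, macrophages and neutrophils, that can either present antigen or restrain T cells. Immature myeloid cells with suppressive activity are called myeloid-derived suppressor cells (MDSCs) and share most of their transcripts with neutrophils and monocytes. Interferons induce antigen presentation genes and also the checkpoint ligand PD-L1, which engages PD-1 on T cells.

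In the progression (T21) phase, marker transcripts of neutrophils and monocytes were among those higher after 7.5 Gy × 1. The calprotectin subunit genes S100a8 and S100a9 and the interleukin-1β gene Il1b were 2.75, 2.78 and 3.22 times as high as after 0 Gy. Irf7, a transcription factor that boosts the output of type I interferon, was 4.55 times as high. H2-Aa, which encodes an MHC class II alpha chain, was lower, at 28.2 against 124 normalized counts. T cell transcripts were few in both samples and as a group lay near 0 on the log2 scale.

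Genes whose normalized counts differed by 2-fold or more were called higher or lower. After 7.5 Gy × 1, 58 genes were higher (14% of 415) and 10 lower (2.41%), and 347 lay within 2-fold. The counting interval excluded no difference for 54 of the 58 and 8 of the 10. Of the 58, 47 were above background in both samples and 11 only after 7.5 Gy × 1. The median log2 fold of all genes was 0.21, with quartiles of −0.14 and 0.72. The gene just inside the limit, Map4k2, had a log2 fold of 1.00, and the one just outside it among genes above background in both samples, Ltb4r1, 0.97. Ciita, at 14 and 24 counts, also lay just outside and was at background after 0 Gy.

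**Figure D1:**
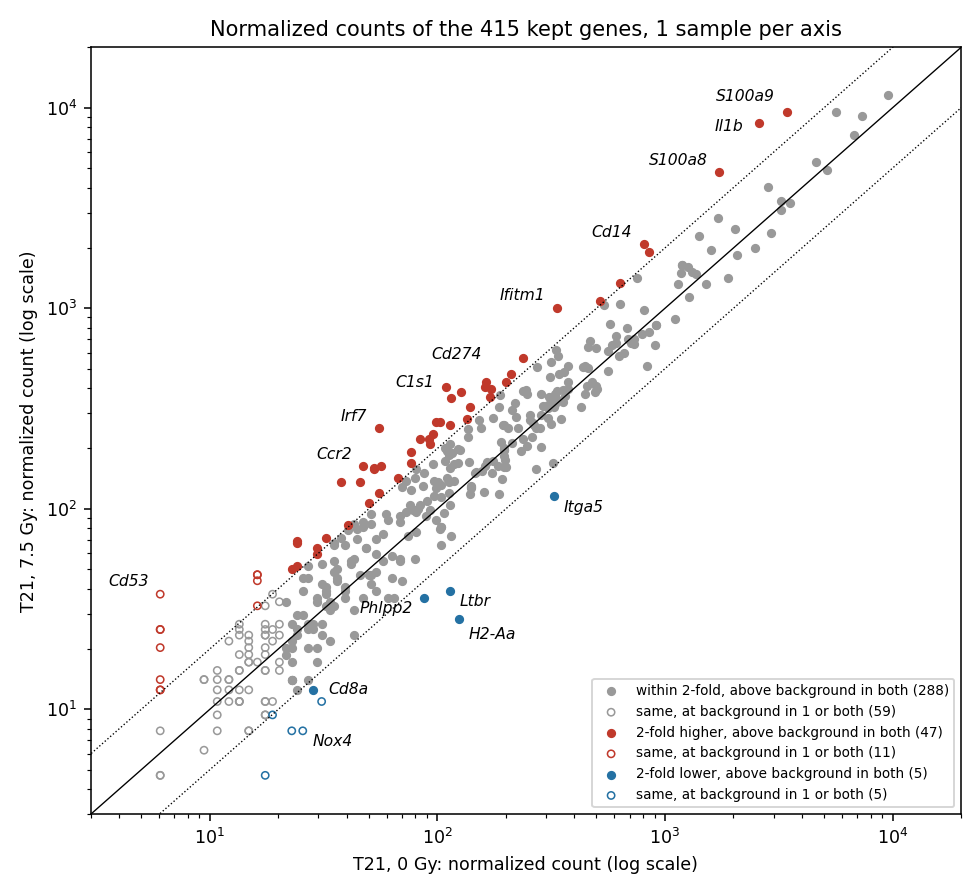
Normalized counts of the 415 genes after 0 Gy (x axis, log scale) and 7.5 Gy × 1 (y axis, log scale) at T21, 1 sample per axis and 1 point per gene. The solid line marks equal counts and the dotted lines a 2-fold difference. The 58 genes above the upper line reach from genes at background up to S100a9 at 9503, whereas the most abundant of the 10 below the lower line after 0 Gy is Itga5, at 326.

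The split between higher and lower genes depended on the scaling. Scaling by the median of ratios over the 415 genes moved their median by −0.27, to −0.06, and gave 32 genes higher and 23 lower. Total endogenous counts moved it by −0.36, to −0.15, with 28 higher and 33 lower, so that calls of higher expression were 85.3% of all calls with housekeeping genes, 58.2% under the median of ratios and 45.9% under total endogenous counts. Scaling to 7 pan-leukocyte genes moved the median by −1.06, to −0.84, which left 2 genes higher, Irf7 and Cd53, and 162 lower. Cd53 is itself among the 7 genes that set this scaling. Of the 7, Cd53 (6 and 24 counts) and Lcp2 (11 and 11 counts) were at background after 0 Gy. The positive control probes, which reflect hybridization alone, gave 49 higher and 15 lower. Because each scaling shifts all genes by nearly the same amount, the gene groups below are set beside the all-gene median of 0.21. Their counts of higher genes are to be read beside the 14% of all genes.

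**Figure D2:**
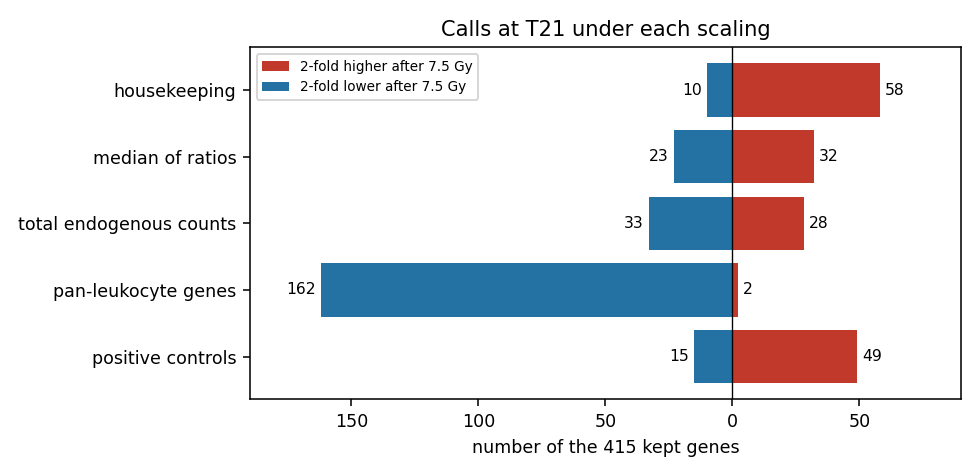
Number of the 415 genes 2-fold higher (right, red) and 2-fold lower (left, blue) after 7.5 Gy × 1 than after 0 Gy at T21 under 5 scalings. Counts of higher genes run from 58 with housekeeping genes to 2 with pan-leukocyte genes, and counts of lower genes from 10 to 162.

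Ptprc, which encodes CD45, was read at 148 counts after 0 Gy and 273 after 7.5 Gy × 1. Its log2 fold was 1.10 (interval 0.80 to 1.40). The integrin beta chain gene Itgb2 was read at 156 and 302 counts, a log2 fold of 1.17. Cd53, a leukocyte tetraspanin gene, was at background after 0 Gy and at 24 counts after 7.5 Gy × 1, at least 1.79-fold higher. Of the 7 pan-leukocyte genes, 4 were higher and none lower, with a median of 1.08. None of the 12 genes typical of CD45-negative stromal and endothelial cells was 2-fold different, and their median was 0.04. Their summed normalized counts were 4510 after 0 Gy and 4402 after 7.5 Gy × 1, with the largest parts from Cd34, a gene of endothelial and progenitor cells read at 1840 and 1276 counts, and Fn1, the fibronectin gene, which macrophages also express, at 871 and 956. Pparg and Nt5e were at background after 0 Gy, and Cxcl12 in both samples. In bulk RNA, fewer cells of a type and less RNA per cell cannot be told apart, and the part of the leukocyte share in the results below was not tested.

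Neutrophil and MDSC markers had the highest median of the cell type lists. Of 7 genes, 5 were higher and none lower, with a median of 1.20, which stayed above 0 under all scalings tried and was 0.14 with pan-leukocyte genes, when all genes had −0.84. S100a9 was read at 2538 counts after 0 Gy and 6075 after 7.5 Gy × 1, a log2 fold of 1.47 (1.41 to 1.54), and S100a8 at 1282 and 3043, a log2 fold of 1.46 (1.37 to 1.56). Both encode calcium-binding proteins abundant in neutrophils and immature myeloid cells. Together with Il1b they took 11.8% of the endogenous counts after 7.5 Gy × 1 (exact binomial interval 11.61 to 11.98) and 5.19% after 0 Gy (5.06 to 5.32). Trem1, which amplifies myeloid inflammation, was read at 62 and 143 counts. Csf3r, the receptor of the neutrophil growth factor G-CSF, was read at 128 and 253, and the neutrophil chemokine receptor Cxcr2 at 24 and 46. The other members were Itgam, which encodes CD11b, with a log2 fold of 0.89, and Clec5a with 0.36. Camp, Ltf and Cxcr1, of granules and of neutrophils, were not among the 415 genes.

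The promoters of S100a8 and Csf3r, and of the monocyte gene Fcgr1 described below, are shown because each holds the core letters bound by PU.1, the factor that directs myeloid development. They are the 250 bases before the transcription start, 5′ to 3′ on the gene's strand, from RefSeq on GRCm38.p6, at chr3:90668821-90669070 (plus strand) for S100a8, chr4:126024409-126024658 (plus strand) for Csf3r and chr3:96293970-96294219 (minus strand) for Fcgr1. Capitals mark GAGGAAG or its complement on the other strand, which begins at position −171, −86 and −56 from the start.
S100a8: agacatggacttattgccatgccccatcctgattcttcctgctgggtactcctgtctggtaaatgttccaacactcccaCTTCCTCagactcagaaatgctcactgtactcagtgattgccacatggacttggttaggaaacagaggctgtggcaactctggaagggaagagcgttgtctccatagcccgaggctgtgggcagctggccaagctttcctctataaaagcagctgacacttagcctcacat
Csf3r: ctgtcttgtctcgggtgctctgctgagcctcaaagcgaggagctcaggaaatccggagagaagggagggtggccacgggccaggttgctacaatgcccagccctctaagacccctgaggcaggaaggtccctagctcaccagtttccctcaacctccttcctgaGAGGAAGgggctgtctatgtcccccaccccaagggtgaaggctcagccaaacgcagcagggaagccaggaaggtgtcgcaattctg
Fcgr1: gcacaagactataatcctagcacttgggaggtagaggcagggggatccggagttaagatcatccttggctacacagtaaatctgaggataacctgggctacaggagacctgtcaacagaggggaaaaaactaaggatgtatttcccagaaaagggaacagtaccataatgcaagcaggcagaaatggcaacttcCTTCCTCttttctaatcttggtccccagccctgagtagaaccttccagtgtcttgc

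The PU.1 letters were not more frequent among the higher genes than among all kept genes. They were found on either strand in 6 of the 42 higher genes with a RefSeq promoter (14.3%). The same held for 61 of the 308 kept genes with such a promoter (19.8%) and for 3244 of all 27025 genes with one. The PU.1 letters were also in 2 of the 10 lower genes (20%). Among the higher genes, the promoters of S100a9, Trem1, Cxcr2, Ccr2 and Il1b lacked them, and Cd14 and Csf1r had no RefSeq promoter to search. The C/EBP letters TTGCNNAA were in 6 of the 42 (14.3%), 12.7% of the kept genes and 10.8% of all. Both motifs were searched on both strands, and their matches were counted separately where they overlapped. A match is a match of letters only.

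Of 14 monocyte and macrophage markers, 5 were higher and none lower, and the median was 0.90, above 0 except with pan-leukocyte genes, where it was −0.16. Ccr2, the chemokine receptor by which inflammatory monocytes leave the marrow, was read at 35 counts after 0 Gy and 104 after 7.5 Gy × 1, a log2 fold of 1.78 (1.22 to 2.38). Fcgr1, the high-affinity IgG receptor, was read at 94 and 245 counts, a log2 fold of 1.60 (1.25 to 1.95). Cd14, the lipopolysaccharide co-receptor, was read at 598 and 1331 counts. Csf1r, the receptor on which macrophages depend, was read at 176 and 363 counts, a log2 fold of 1.26 (0.99 to 1.53). The macrophage genes C1qb, C1qa and Adgre1, which encodes F4/80, lay just under the limit, with log2 folds of 0.95, 0.91 and 0.88. The Fc receptor genes Fcgr2b and Fcgr3 were close to the median of all genes, at 0.22 and 0.28. Cd163, a scavenger receptor, was at 11 and 5 counts, at background in both samples.

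Of 6 dendritic cell genes 1 was higher (16.7%), the transcription factor gene Batf with a log2 fold of 1.09. Their median was 0.70 (−0.36 with pan-leukocyte genes). Irf4, at 13 and 6 counts, was at background in both samples, and Batf3 and Xcr1 were not among the 415 genes. Itgax, which encodes CD11c, had a log2 fold of −0.01. Of 6 genes on the B cell list 3 were higher, namely Btk, Blnk and Cd24a, and the median was 0.97 (−0.08 with pan-leukocyte genes). These are signaling and surface genes that myeloid cells also express. Btk was at 6 and 16 counts (at least 1.20-fold higher), Blnk at 18 and 44 and Cd24a at 34 and 87. The B cell restricted gene Ms4a1 had a log2 fold of −0.70, and Cd79b was at background in both samples.

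Lymphocyte transcripts showed no common shift. Of 12 T cell markers 1 was higher and none lower, and the median was 0.08, under the 0.21 of all genes and below 0 under the median of ratios (−0.19), total endogenous counts (−0.28) and pan-leukocyte genes (−0.98). Of the 12, only 5 were above background in both samples, with a median of −0.05. Cd3e, a chain of the T cell receptor complex, was read at 11 and 14 counts. It was at background after 0 Gy and at least 1.05-fold higher after 7.5 Gy × 1. Cd3d was read at 18 and 15 counts. The adhesion gene Cd2 was read at 12 and 30 counts, at least 2.24-fold higher. Cd4 was read at 24 and 26 counts, a log2 fold of 0.33 (−0.53 to 1.19). Cd8a, which marks cytotoxic T cells, was read at 21 counts after 0 Gy and 8 after 7.5 Gy × 1. Its log2 fold of −1.18 made it 1 of the 10 lower genes, but the interval of −2.56 to 0.05 held no difference.

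Of the 12 CD8 and cytotoxic genes, 2 were higher (16.7%) and Cd8a lower. Their median was 0.30 (0.03 with the median of ratios, −0.06 with total endogenous counts and −0.76 with pan-leukocyte genes). The higher ones were Klrc1, an NK and T cell receptor gene at 12 and 30 counts (at least 2.24-fold), and Fasl, the death ligand gene, at 5 and 13 counts. The scaled Fasl count after 7.5 Gy × 1 lay under the scaled background of the 0 Gy sample, so no bound can be given. Of the 12 genes, only 5 were above background in both samples, with a median of 0.41. The granzyme genes Gzma and Gzmb had log2 folds of 0.50 and 0.41 and the perforin gene Prf1 0.02. Of 9 CD4 and Treg genes 2 were higher, the checkpoint receptor gene Ctla4 at 22 and 41 counts and Foxp3, which defines regulatory T cells, at 6 and 8. The Foxp3 interval held no difference, and its call rests on the floor of the authors' values, since the unfloored counts give a log2 fold of 0.63. Both NK genes kept, Klra7 and Klra8, were at background, and none of the 4 mast cell, basophil and eosinophil genes was kept.

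**Figure D3:**
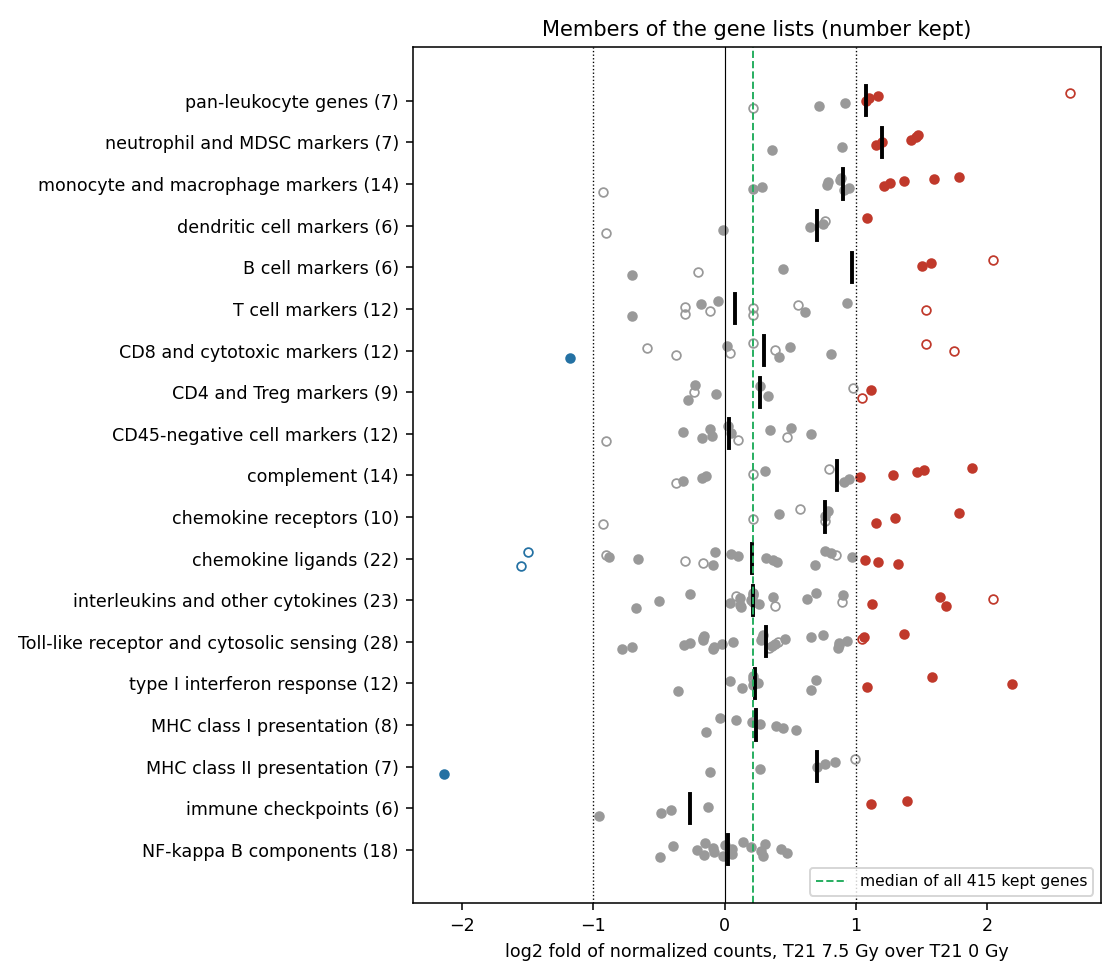
Log2 folds of normalized counts, T21 7.5 Gy over T21 0 Gy, for the members of 19 gene lists, 1 point per gene, with the list median as a black bar and the median of all 415 genes as a dashed line at 0.21. Red and blue points are 2-fold higher and lower, grey points within 2-fold, and open points at background in 1 or both samples. Neutrophil and MDSC markers center on 1.20 and T cell markers on 0.08.

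On the PD-1 axis, 1 ligand gene was 2-fold higher, and the receptor gene and the other ligand gene were read at few counts. Cd274, which encodes PD-L1, was read at 121 counts after 0 Gy and 273 after 7.5 Gy × 1, a log2 fold of 1.39 (1.07 to 1.71). Its log2 fold was 1.12 with the median of ratios and 0.33 with pan-leukocyte genes. Pdcd1, which encodes PD-1, was read at 18 and 8 counts, a log2 fold of −0.96 (−2.37 to 0.32), and the ligand gene Pdcd1lg2 at 20 and 13 counts, −0.41 (−1.54 to 0.67). For these 2 genes the depth could not show a difference. Tigit, an inhibitory receptor gene, had a log2 fold of −0.48, and the median of the 6 checkpoint genes was −0.27, with 2 genes higher, Cd274 and Ctla4.

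Among cytokines, Il1b was read at 1927 counts after 0 Gy and 5351 after 7.5 Gy × 1, a log2 fold of 1.69 (1.61 to 1.76). Il1rn, which encodes the antagonist of the same receptor, was read at 85 and 229 counts, a log2 fold of 1.64 (1.28 to 2.02). Il15, a growth factor of NK and memory T cells, was at background after 0 Gy and at 16 counts after 7.5 Gy × 1, at least 1.20-fold higher. Ebi3, a subunit of interleukin-27, had a log2 fold of 1.13. These were the 4 higher genes of 23 (17.4%, against 14% of all genes), and their median of 0.21 equaled that of all genes. Tnf, Il6, Il10 and Tgfb1 were close to that median, with log2 folds of 0.12, 0.20, 0.21 and 0.12.

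Of 31 cytokine receptor genes 4 were higher (12.9%, against 14% of all genes), with a list median of 0.14. They were the myeloid growth factor receptor genes Csf1r, Csf2rb (1.21) and Csf3r (1.20) and the interleukin-2 receptor beta chain gene Il2rb (1.14). Of 10 chemokine receptor genes 3 were higher, among them Ccr2 and Cxcr2 with log2 folds of 1.78 and 1.15. Their median was 0.77, above 0 except with pan-leukocyte genes (−0.29). Of 22 chemokine ligand genes 3 were higher (13.6%) and 2 lower. Cxcl3, a neutrophil attractant, was read at 120 and 259 counts, and Cxcl9, which interferon-γ induces and which recruits T cells, at 69 and 134. The monocyte attractant Ccl2 was abundant and close to equal, at 2628 and 2149 counts, a log2 fold of −0.08. The 2 lower ones, Ccl25 (23 and 7 counts, at least 2.83-fold) and Ppbp (17 and 5 counts, at least 2.09-fold), were at the background of the 7.5 Gy × 1 sample.

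Complement genes were higher in several steps of the cascade. Of 14 genes 5 were higher and none lower, and the median was 0.86 (−0.20 with pan-leukocyte genes, above 0 under the other scalings). C1s1, a protease of the first component, was read at 81 counts after 0 Gy and 258 after 7.5 Gy × 1, a log2 fold of 1.89 (1.52 to 2.26). C3, the central component, was read at 42 and 104 counts, and Cfb, of the alternative pathway, at 18 and 43. Cfp, which encodes properdin, had a log2 fold of 1.29 and C1ra, the partner protease of C1s1, 1.03.

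Only a few interferon response genes were 2-fold higher. Irf7 was read at 41 counts after 0 Gy and 161 after 7.5 Gy × 1, a log2 fold of 2.19 (1.68 to 2.72). Ifitm1, which encodes an antiviral membrane protein, was read at 249 and 641 counts. Both were among the 3 higher genes of the 12 of the type I interferon response, whose median of 0.23 was close to that of all genes and below 0 under the median of ratios (−0.04), total endogenous counts (−0.13) and pan-leukocyte genes (−0.82). The induced genes Ifit2, Bst2 and Ifi35 had log2 folds of 0.25, 0.21 and 0.21. Of 24 interferon-γ response genes, 4 were higher (16.7%), among them Fcgr1, Cd274 and Cxcl9, and 1 lower (H2-Aa), with a median of 0.33. Irf5, which drives inflammatory cytokine genes, had a log2 fold of 1.60.

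No antigen presentation gene was 2-fold higher. None of 8 MHC class I presentation genes was 2-fold different, with a median of 0.24 and B2m at 0.27. Of the 7 class II genes 1 was lower, and their median was 0.70 (−0.35 with pan-leukocyte genes). H2-Aa was read at 92 counts after 0 Gy and 18 after 7.5 Gy × 1, a log2 fold of −2.14 (−2.96 to −1.40). The gene of its partner chain, H2-Ab1, was read at 228 and 182 counts (−0.11), whereas H2-Eb1 was read at 1044 and 1467 (0.70) and the invariant chain gene Cd74 at 4175 and 6115 (0.76). The lower class II chain gene thus stood apart from the other members, whose log2 folds ran from −0.11 to 0.84, apart from Ciita at background after 0 Gy.

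The other lower genes above background in both samples were Itga5, the fibronectin receptor alpha chain (242 and 74 counts, log2 fold −1.50, interval −1.89 to −1.11), Ltbr, the lymphotoxin beta receptor (84 and 25 counts, −1.53, −2.24 to −0.88), and the phosphatase gene Phlpp2 (65 and 23 counts, −1.28). Nox4, an NADPH oxidase gene, was read at 19 and 5 counts, at least 2.34-fold lower. The remaining 2, Adal and Lilra6, were at background in both samples. Casp1, which encodes the protease that matures interleukin-1β, was read at 201 and 101 counts, a log2 fold of −0.78 (−1.14 to −0.43), opposite in sign to Il1b.

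Of 28 genes of Toll-like receptor and cytosolic sensing 3 were higher, Cd14, Clec4e with a log2 fold of 1.06 and Nod2 with counts of 4 and 8. None of 18 NF-κB components was 2-fold different, from Nfkb1 at −0.49 to Bcl3 at 0.47. Of 16 JAK-STAT components 2 were higher (12.5%). Of 16 genes of T cell receptor signaling 2 were higher (12.5%), Ptprc and Ptpn6, which are both expressed in all leukocytes. Of 13 immunosuppressive mediators 1 was higher (7.69%), Entpd1, which encodes the ectonucleotidase CD39, at 76 and 173 counts. The oxidase gene Cybb had a log2 fold of 0.88 and the nitric oxide synthase gene Nos2 −0.13. Of 18 integrin and adhesion genes, 2 were higher (11.1%), among them Itgb2, and Itga5 was lower. Of 14 co-stimulation genes Cd2 and Slamf7 were higher (14.3%). Slamf7, at 12 and 21 counts, was at background after 0 Gy (at least 1.57-fold), and its interval of −0.07 to 2.18 held no difference. Abcb1a, a drug efflux transporter gene outside these lists, was read at 28 and 87 counts, a log2 fold of 1.85 (1.22 to 2.52).

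The late (T14) phase gave the same contrast in other samples of the same run. There, 49 genes were higher after 7.5 Gy × 1 than after 0 Gy (11.8% of 415) and 3 lower (0.723%), with a median of 0.24. Of the 58 genes higher at T21, 49 were above 0 at T14, as were 304 of all 415 genes. Of the 58, 9 were 2-fold higher at T14 too, which is 15.5% of the T21 genes, against 11.8% of all genes, and 18.4% of the T14 genes. Among the 9 were Irf7, Ccr2, Cd2, Cfb, Cd274, Il2rb, Ctla4 and Nod2, of which Cd2 and Nod2 were at background after 0 Gy at T21. Of the 10 genes lower at T21, 1 was lower at T14 as well, Nox4.

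The 2 phases differed in which lists lay above the all-gene median. Neutrophil and MDSC markers had a median of −0.17 at T14 and 1.20 at T21, and monocyte and macrophage markers 0.03 and 0.90. T cell markers had 0.86 at T14, with 6 of 12 higher, and 0.08 at T21. CD8 and cytotoxic genes had 0.89 and 0.30, and the type I interferon response 0.95, with 6 of 12 higher, and 0.23. With 1 sample per arm and phase these differences between the phases were not tested.

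At T14, S100a9 stood at 8098 normalized counts after 0 Gy and 6045 after 7.5 Gy × 1, against 3423 and 9503 at T21. Csf1r stood at 1095 and 979.65 in the late phase and 237 and 568 in the progression phase. For both genes the 0 Gy sample was the higher one at T14 and the lower one at T21. Irf7 stood at 99.7 and 474 normalized counts at T14 and 55.3 and 252 at T21, higher after 7.5 Gy × 1 in both phases. H2-Aa stood at 715 and 791 at T14 and 124 and 28.2 at T21, having been at 2111 at baseline, which was read in another run.

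For the 58 genes higher at T21, the median change from T14 to T21 was −1.56 on the log2 scale after 0 Gy. After 7.5 Gy × 1 it was −0.78. The medians of all genes were −0.60 after 0 Gy and −0.64 after 7.5 Gy × 1. The 58 genes were chosen by the same T21 samples, which favors a lower 0 Gy value. Among the 58, the 8 genes higher at T21 than at T14 after 7.5 Gy × 1 were Cd53, C1s1, Abcb1a, Il1b, Cd24a, S100a9, S100a8 and Cxcl3.

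**Figure D4:**
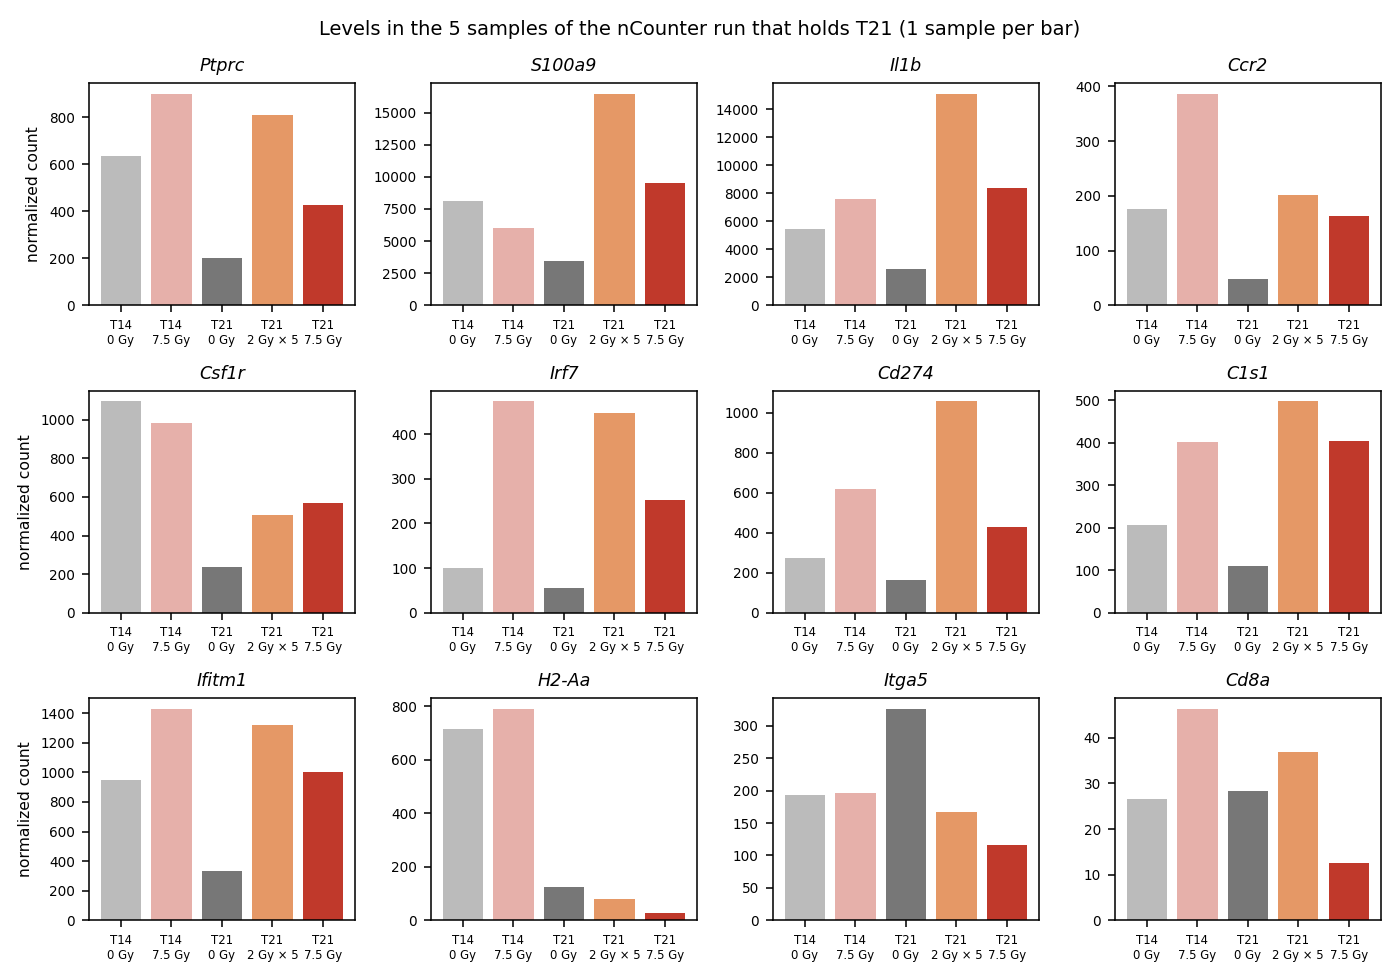
Normalized counts of 12 genes in the 5 samples of the run that holds T21, 1 sample per bar, each axis starting at 0. For the first 9 genes the 0 Gy bar of T21 is the lowest of the 5. These 9 were chosen among the 58 genes higher at T21, which favors a low 0 Gy bar there. The others were chosen among the 10 lower genes, which favors a low 7.5 Gy bar of T21. For S100a9 and Il1b the 7.5 Gy bar of T21 lies under that of 2 Gy × 5 and over both T14 bars, and for H2-Aa it is the lowest of the 5, at 28.2.

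The 2 Gy × 5 sample of T21 shares the 0 Gy sample, so its values are only set beside those of 7.5 Gy × 1. Against 0 Gy it had 146 genes higher (35.2%) and 2 lower (0.482%). Its median over all genes was 0.71, against 0.21 for 7.5 Gy × 1, so its values were higher in general. Among the 58 genes, its normalized count lay between 0 Gy and 7.5 Gy × 1 for Abcb1a, Fasl, Klrc1, Cd2, Csf1r and Cxcl9. For the others it was at or above that after 7.5 Gy × 1, and the share of all genes at or above it was not counted. Il1b was at 2599 normalized counts after 0 Gy, 15097 after 2 Gy × 5 and 8370 after 7.5 Gy × 1. Cd274 was at 163, 1058 and 427 in the same order, and Csf3r at 173, 1036 and 396. Cxcl9 was at 93.1, 139 and 209.6, and Csf1r at 237, 504 and 568. The share of S100a8, S100a9 and Il1b in the endogenous counts was 15.3% after 2 Gy × 5, against 11.8% after 7.5 Gy × 1 and 5.19% after 0 Gy.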

How the data were processed

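The authors deposited the unscaled count of every probe, read on the nCounter Analysis System with a mouse immunology panel of 561 genes, 8 negative and 6 positive control probes. The signal values are the normalized counts deposited by the authors. As read from the values, each sample was multiplied by 1 factor (1.35 for 0 Gy and 1.56 for 7.5 Gy × 1 at T21) that sets the geometric mean of the 14 housekeeping genes to 789, and values under the geometric mean of a sample's negative controls (2.45 to 8.05) were set to it without scaling. This floor moved the fold of 10 of the 415 genes, up or down. The series table repeats them (0 of 7475 values different). The software used is not given in the sources used here. Of 561 accessions 549 matched a current symbol and 12 did not, and these are in no list.

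Log2 folds were taken from the normalized values. Intervals are exact (Clopper-Pearson) 95% intervals of the ratio of raw counts, scaled by the factors, and were tested on simulated data. A bound sets the sample at background to its own threshold, the mean plus 2 SD of its negative controls. Named genes were the 12 highest and up to 12 lowest with an interval that excluded no difference, up to 4 per list, and set PD-1 axis and lineage genes. Others, such as genes within a list's range, were chosen after their values were seen. Results for some genes are not reported here. Promoters came from RefSeq (GRCm38.p6). The genes and 30 lists were chosen with earlier results of these data known. Alternatives were 4 other scalings, filters, the interval as call rule, raw counts plus 10 and, chosen after seeing the data, counts without the floor, subtraction of the negative control mean and list medians scaled by the positive controls. Python 3.11.15, numpy 2.4.6, pandas 2.3.3, scipy 1.17.1 and matplotlib 3.10.9 were used.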

Additional observations from a re-analysis of the deposited data

How the results depend on the processing

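With 58 genes higher, 10 lower and a median of 0.21 in the main setting, the median of ratios gave 32, 23 and −0.058, total endogenous counts 28, 33 and −0.15, and pan-leukocyte genes 2, 162 and −0.84. Positive controls gave a median of 0.14. Without a filter 56 genes were lower and the median was 0.14, with 132 genes near background added. Only genes above both backgrounds gave 5 lower, by construction from fewer genes, and raw counts plus 10 gave 3 lower. Subtracting the negative control mean, chosen after seeing the data, gave 117 higher and a median of 0.46. The 26 of 29 lists with a median above 0 became 14 with the median of ratios, 10 with total endogenous counts and 2 with pan-leukocyte genes. Under pan-leukocyte genes Foxp3 (−0.013), Nod2 (−0.013) and Slamf7 (−0.038) changed sign, as did C1ra and Map4k2, all of them close to the 2-fold limit. Without the floor, also chosen after seeing the data, 57 genes were higher, without Foxp3, and 10 lower. The cause of these differences was not tested beyond the construction named. The intervals of Cd3d, Cd4, Cd8a and Pdcd1, read at 8 to 26 counts, all held no difference. No paired analysis was possible because each group has 1 sample, and for the same reason no sample could be left out.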

Other observations

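The following genes were chosen after their values were seen. Fkbp5, a glucocorticoid-induced co-chaperone of steroid receptors, was at 292 and 151 normalized counts after 0 Gy and 7.5 Gy × 1 at T14 and at 321 and 169 at T21, with log2 folds of −0.96 and −0.93, just under the 2-fold limit in both phases. Cxcl13, a B cell attractant, was at 216 and 14.5 at T14, a log2 fold of −3.90, and at 43.2 and 23.5 at T21, −0.88 with a counting interval of −1.87 to 0.05. Among the housekeeping genes used for scaling, the log2 folds at T21 ran from −1.01 for Tubb5, the tubulin gene read at 721 and 309 counts, to 0.95 for Alas1, of heme synthesis, read at 85 and 142 counts.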
